A study of Mus musculus with 16 samples.

Results

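The genes described here are 36 genes of glucose uptake, glycolysis, its lactate end step and glycogen turnover. They were taken by gene symbol from an expression table of 35275 mouse genes. All 36 were found. Of these, 31 had a mean of at least 0.5 FPKM over the 16 libraries and entered the tests, and 5 (Aldoc, Pygl, Phkg1, Slc2a3 and Slc2a4) lay below that level. FPKM counts sequenced fragments relative to gene length and to the size of the library. The cells were C2C12, an established mouse myoblast line, of the kind labelled PAX7 NEG, kept in high-glucose medium. There were 2 genotypes, each as 2 lines. Controls were population 1 and population 2, labelled Wild-type. The knockout lines were clone 1 and clone 2, which lack miR-206 together with both miR-1a genes, miR-1a-1 as well as miR-1a-2 (triple knockout, tKO). Each line was sampled as myoblasts in growth medium with 20% FBS at about 80% confluency (GM), and as myotubes after 3 days with 2% HS in its place (DM3). Each line and stage gave 2 libraries, labelled BR1 and BR2 and called culture 1 and culture 2 here. Each genotype at each stage thus had 4 libraries, giving 4 groups. The labels do not say that BR marks separate cultures, and libraries of 1 line share their founder cells, so p-values measure only the spread between these libraries. With 2 clones, the effect of the knockout and differences between clones cannot be told apart.

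Glycolysis splits glucose into pyruvate and yields ATP without oxygen. Glucose enters through facilitative transporters, is trapped by hexokinase, is committed by phosphofructokinase, and leaves as lactate when lactate dehydrogenase reduces pyruvate. Muscle also stores glucose as glycogen, which glycogen synthase builds and glycogen phosphorylase breaks down for contraction. Several steps have a form enriched in skeletal muscle beside a form found in most cells: Pfkm beside Pfkl and Pfkp, Pgam2 beside Pgam1, Eno3 beside Eno1, and Pygm beside Pygb and Pygl. MicroRNAs such as miR-1 and miR-206, which are enriched in muscle, act by pairing a short seed at their 5′ end with sites in the 3′ UTR of mRNAs.

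The mature miR-206-3p is shown because its seed, which miR-1 shares, defines which member mRNAs carry a matching site. It lies at chr1:20679055-20679076 on the plus strand (RefSeq, GRCm38.p6), and capitals mark bases 2 to 8.
miR-206-3p: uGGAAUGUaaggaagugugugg
Sites were counted where the 3′ UTR held ACATTCCA (the 8-mer site), ACATTCC or CATTCCA (the 7-mer sites, contained in the 8-mer), on the mRNA strand only. Of 31 members with an annotated 3′ UTR, 4 held a site (12.9%), against 18.96% of 10806 tested genes. An 8-mer was in 2 of them (6.45%), against 4.46%. The median 3′ UTR was 683 bases in members and 1192 bases in all tested genes, so the members offered less sequence. The 4 sites follow, because they are all the matches found in the members' 3′ UTRs that were searched. Each is in a stretch of at most 30 bases with the match in capitals.
Pgam1: gggggcatagtCATTCCAgtggagagtgg
Pfkfb4: ctctcactaagACATTCCActgtggccctg
Pfkfb3: gatgtgggttcCATTCCAtttccacagcc
Pgm1: aACATTCCAgtactggatag
The matches lie in the 3′ UTRs at chr19:41918208-41918214 (plus strand, a 7-mer), chr9:109030692-109030699 (plus, an 8-mer), chr2:11474472-11474478 (minus, a 7-mer) and chr5:64127881-64127888 (plus, an 8-mer), in the order printed. A match is a description of letters and not a shown target.

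Promoters are printed for 3 of the 5 members that passed between genotypes at DM3: the ubiquitous mutase Pgam1, and the muscle forms Pgam2 and Pygm. Each runs from 250 bases before to 50 bases after the gene start (RefSeq, GRCm38.p6). Searched on both strands were the E-boxes CAGCTG and CACCTG, motifs of the family that myogenic factors bind, and the hypoxia core ACGTG or GCGTG. Matches are in capitals.
Pgam1: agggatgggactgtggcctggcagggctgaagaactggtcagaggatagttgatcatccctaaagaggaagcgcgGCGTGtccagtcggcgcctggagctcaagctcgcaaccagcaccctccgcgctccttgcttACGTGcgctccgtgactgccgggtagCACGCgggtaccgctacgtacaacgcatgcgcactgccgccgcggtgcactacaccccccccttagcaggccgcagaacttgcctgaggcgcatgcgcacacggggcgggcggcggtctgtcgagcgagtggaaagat
Pgam2: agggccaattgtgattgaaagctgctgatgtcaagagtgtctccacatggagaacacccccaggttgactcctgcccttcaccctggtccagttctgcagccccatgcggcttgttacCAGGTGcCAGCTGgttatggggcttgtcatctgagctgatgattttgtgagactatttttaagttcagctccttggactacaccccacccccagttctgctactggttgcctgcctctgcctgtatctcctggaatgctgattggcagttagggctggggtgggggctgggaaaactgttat
Pygm: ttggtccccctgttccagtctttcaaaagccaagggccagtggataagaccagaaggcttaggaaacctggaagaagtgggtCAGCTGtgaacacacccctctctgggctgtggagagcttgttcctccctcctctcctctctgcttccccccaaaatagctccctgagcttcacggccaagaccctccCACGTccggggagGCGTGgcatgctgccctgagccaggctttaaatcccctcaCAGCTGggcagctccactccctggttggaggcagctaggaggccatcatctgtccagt
They lie at chr19:41911621-41911920 (plus strand), chr11:5803747-5804046 (minus) and chr19:6384158-6384457 (plus). The Pgam1 promoter held 3 matches to the hypoxia core and no E-box of either kind. The Pgam2 promoter held 1 CAGCTG and 1 CACCTG on the opposite strand, and no hypoxia core. The Pygm promoter held 2 CAGCTG and 2 hypoxia cores. Pfkfb4, higher in tKO, and Ldhb, lower in tKO, also passed and are not printed. The promoter of each held the hypoxia core and no E-box of either kind. Whether these motifs go with the direction of a member was not tested. The table of promoters had 50 entries for 34 of the 36 members. The hypoxia core was in 36 of these 50 (72%), against 43.8% of 32851 mouse promoters. CAGCTG was in 11 (22%, against 16.3%) and CACCTG in 9 (18%, against 20.2%). These shares are descriptions, several entries belong to 1 gene, and base composition was not matched.

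Depth ranged from 22642563 to 56585952 fragments per library, with the deepest library in control DM3. The members held 1.71% to 3.53% of the fragments. The transcript that hosts miR-206, listed as mmu-mir-133b, had 0 to 4 fragments in the control GM libraries and 0 in those of tKO GM, where a count of 0 allows up to 3. At DM3 it had 59 to 608 in controls and 14 to 152 in knockouts. It is a poly(A) transcript and does not measure the mature microRNAs. Of 12 markers of differentiated muscle, 11 were in the table (the symbols Tmem8c and Mymk name 1 gene), and Tnnc2 and Actn2 stayed under 0.5 FPKM. All 9 that were tested rose with differentiation in both genotypes, while all 8 markers of proliferating cells fell. Summed muscle markers were 1034 to 1690 FPKM in control DM3. In tKO DM3 they were 1595 and 1707 in culture 1 but 436 and 600.1 in culture 2, so those 2 libraries stand apart. No muscle or proliferation marker passed the test between genotypes at either stage. A library of tKO GM, clone 1 of culture 2, had 73.5 FPKM of muscle markers against 9.55 to 27.6 in the other GM libraries. Of 7 fibroblast-like markers, summed to 15.02 to 57.8 FPKM, Lum and Thy1 stayed under 0.5 FPKM, and 1 of the 3 tested was lower in tKO at each stage. Of 6 adipocyte-like markers, summed to 3.15 to 15.4 FPKM, Adipoq, Plin1 and Cidec stayed under 0.5 FPKM. In bulk RNA, fewer cells of a type and less RNA per cell cannot be told apart.

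**Figure D1:**
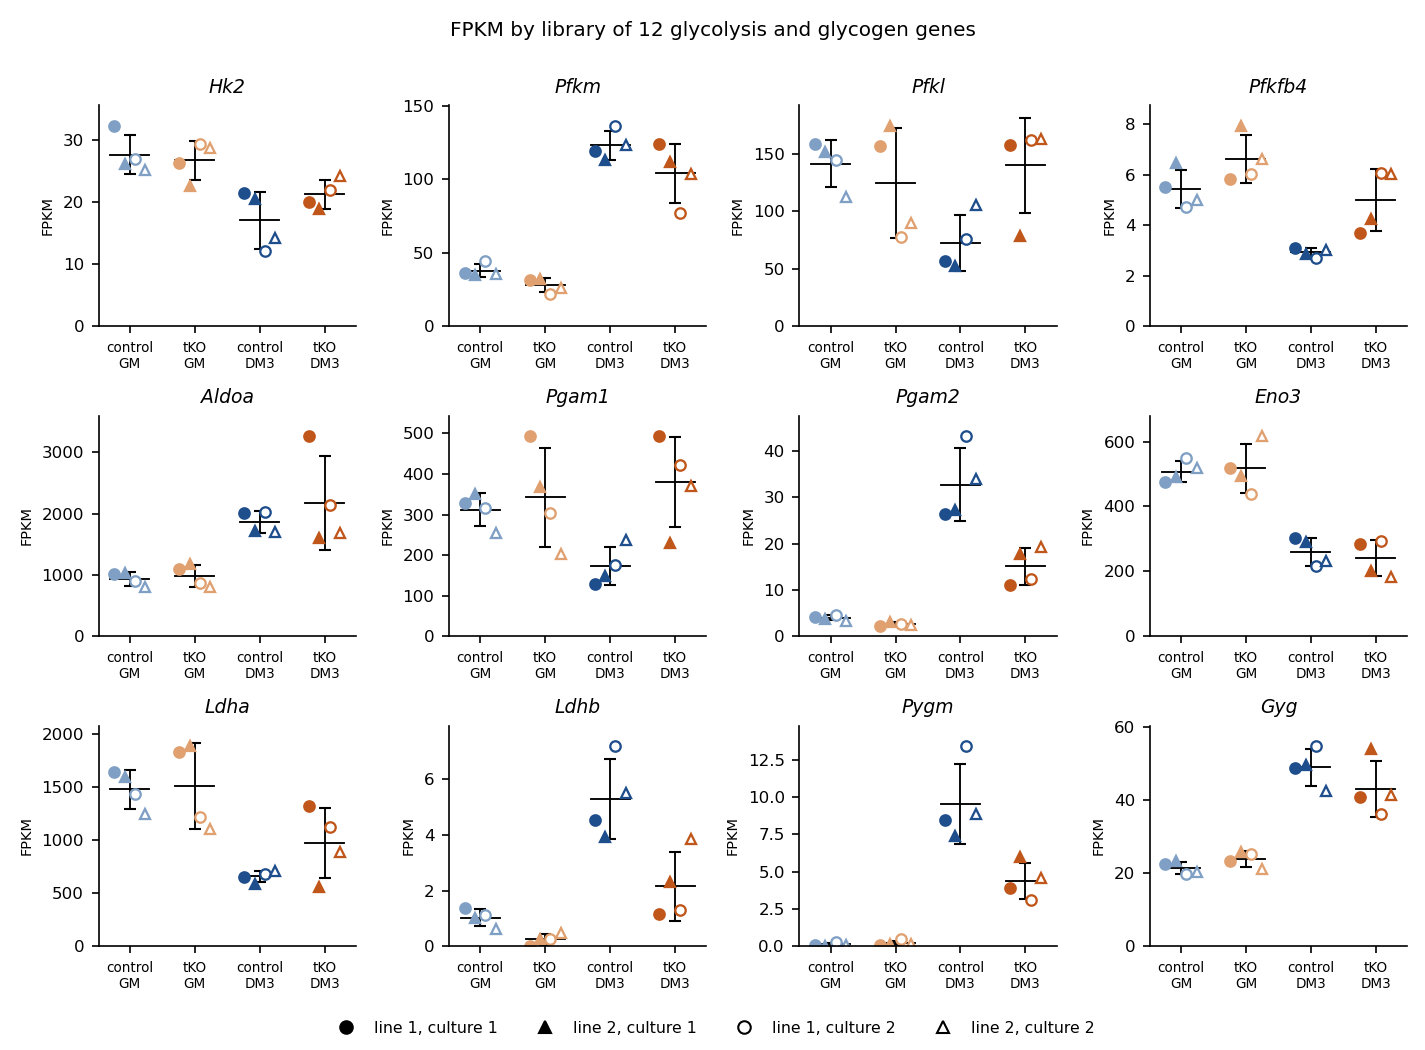
FPKM (linear axes from 0) of 12 member genes in each library of the 4 groups. Circles are line 1 and triangles line 2, filled for culture 1 and open for culture 2, and bars give the mean ± SD of 4 libraries. Pgam2, Ldhb and Pygm in tKO DM3 lie below every control DM3 library, while Pgam1 overlaps through 1 library at 231 FPKM.

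Differentiation of control cells was compared first, to show how glucose metabolism genes move when myoblasts become myotubes. Of the 4 muscle forms named above, Pygm, Pgam2 and Pfkm rose, and Eno3, the enolase form that dominates in adult muscle, fell. Of their counterparts, Pfkl and Pgam1 fell, Pygb rose, Pfkp and Eno1 did not pass, and Pygl was below the filter. Gyg, Aldoa, Gapdh, Pgk1, Gpi1, Ldhb and Pfkfb3 rose too, and Ldha, Hk2, Pfkfb1, Pfkfb4 and Pgm1 fell. In all, 11 of 31 members rose, against 23.2% of all tested genes, and 8 fell, against 38.3% (limma on log2(FPKM + 1), Benjamini-Hochberg adjusted p under 0.05). The members' median difference was 0.29 on the log2 scale, and that of all tested genes was -0.15. Median-of-ratios scaling brings the median of all genes to 0.01. Then 15 members rose, against 30.5% of all tested genes, and 7 fell, against 30.7%. No member that passed the test reversed under that scaling or under TPM.

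Of the tested genes of glucose uptake and trapping, Hk2 fell and Slc2a1 and Hk1 did not pass. Slc2a1, the transporter that supplies most dividing cells, was 66.7, 57.6, 49.1 and 47.5 FPKM in control GM, given here and below as line 1 and line 2 of culture 1, then line 1 and line 2 of culture 2. In control DM3 it was 34.0, 32.6, 39.7 and 37.4. The 2 groups did not overlap, but the difference of -0.60 ± 0.28 (standard error, n = 4 libraries each) had an adjusted p of 0.0771 in limma. Slc2a4, the insulin-responsive transporter of muscle and fat, lay below the filter. It was 0.0179, 0.0743, 0 and 0.0192 FPKM in control GM, from 0 to 8 fragments. In control DM3 it was 0.32, 0.354, 0.166 and 0.564 FPKM, from 30 to 61 fragments, so every differentiated control library was above every GM one. Even there it made up 0.976% ± 0.441 (SD, n = 4) of the summed FPKM of Slc2a1, Slc2a3 and Slc2a4. Slc2a8, a transporter that is no member, averaged 17.5 FPKM in control DM3 and was not in that sum. Slc2a3 stayed at 0.0628 FPKM or less in all 16 libraries. Hk2, the insulin-responsive hexokinase, was 32.3, 26.0, 27.0 and 25.2 FPKM in control GM. It was 21.5, 20.4, 12.2 and 14.3 in control DM3. It fell by 0.69 ± 0.16 (adjusted p = 0.00113, limma), with the 2 libraries of culture 2 lowest. Hk1, the housekeeping hexokinase, was 104 ± 7.55 FPKM in control GM (here and below mean ± SD, n = 4) and 89.4 ± 3.91 in control DM3 and did not pass (adjusted p = 0.141, limma). Gpi1, the isomerase of the next step, rose from 179.9 ± 22.6 to 245 ± 24.3 FPKM (adjusted p = 0.0454, limma). That call was lost with no filter and on leaving out 7 of the 8 control libraries, each in turn, all but line 2 of culture 1 in GM.

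At the phosphofructokinase step Pfkm rose, Pfkl fell and Pfkp did not pass. Pfkm, the muscle form, was 36.2, 34.7, 44.7 and 35.8 FPKM in control GM. In control DM3 it was 119, 113, 136 and 123. It was 3.25-fold higher in the means and rose by 1.68 ± 0.15 (adjusted p = 9.73e-08, limma). Pfkl, the liver-type form, was 158, 151, 144 and 112 FPKM in control GM and 56.3, 52.2, 75.7 and 105 in control DM3. It fell by 1.00 ± 0.29 (adjusted p = 0.00672, limma), least in line 2 of culture 2. Pfkp, the platelet-type form, went from 12.7 ± 1.84 to 16.7 ± 1.06 FPKM and did not pass (adjusted p = 0.0795, limma). The bifunctional regulators set the level of the sugar bisphosphate that activates phosphofructokinase. Pfkfb3, whose product favours synthesis of that activator, rose by 0.91 ± 0.14 from 4.36 ± 0.378 to 9.06 ± 1.01 FPKM. Pfkfb4 was 5.54, 6.46, 4.74 and 5.01 FPKM in control GM and 3.1, 2.88, 2.71 and 3.04 in control DM3. It fell by 0.70 ± 0.14 (adjusted p = 0.00045, limma) with no overlap. Pfkfb1, low throughout, fell by 0.69 from 0.817 ± 0.135 to 0.126 ± 0.0589 FPKM.

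The middle and lower steps held the most abundant members. Aldoa, the muscle and general aldolase, was 1016, 1030.3, 897 and 796 FPKM in control GM. It was 2016, 1715, 2020.1 and 1705 in control DM3, a rise of 1.00 ± 0.20 (adjusted p = 0.000341, limma). Gapdh, which yields the first NADH of the pathway, rose from 1577 ± 168 to 2651 ± 351 FPKM. Pgk1, which makes its first ATP, rose from 837 ± 122 to 1155 ± 118 FPKM. The Pgk1 call (adjusted p = 0.0401, limma) was lost with no filter and on leaving out 6 of the 8 control libraries, each in turn, all but line 1 of culture 1 in GM and line 2 of culture 1 at DM3. Tpi1, the triose isomerase, was 880.0 ± 152 and 805 ± 38.5 FPKM at the 2 stages and Pkm, the pyruvate kinase of non-liver tissue, 1888 ± 212 and 2410.2 ± 254 FPKM, and neither passed. Pgam2, the muscle mutase, was 4.22, 3.78, 4.65 and 3.4 FPKM in control GM. It was 26.5, 27.2, 43.4 and 34.0 in control DM3. It was 8.17-fold higher and rose by 2.73 ± 0.18 (adjusted p = 5.75e-09, limma). Pgam1, the ubiquitous mutase, was 328, 351, 316 and 255 FPKM in control GM and 129, 149.8, 177 and 238 in control DM3. It fell by 0.87 ± 0.26 (adjusted p = 0.00847, limma) without overlap, yet remained the more abundant mutase. Its line 2 of culture 2 was the nearest to the GM range. Eno3 was 474, 490.3, 548 and 518 FPKM in control GM and 304, 289, 217 and 232 in control DM3, a fall of 0.97 ± 0.16 (adjusted p = 7.44e-05, limma). Eno1, the general enolase, was 1166 ± 55.6 and 1161 ± 139.9 FPKM and did not pass (adjusted p = 0.956, limma). Ldha, the lactate dehydrogenase subunit of glycolytic tissue, was 1640.0, 1590.0, 1429.8 and 1241 FPKM in control GM. It was 653, 589, 683 and 712 in control DM3, a fall of 1.16 ± 0.23 (adjusted p = 0.000373, limma). Ldhb, the subunit of oxidative tissue, was 1.38, 1.00, 1.11 and 0.636 FPKM in control GM and 4.54, 3.93, 7.21 and 5.52 in control DM3. It rose by 1.62 ± 0.23 (adjusted p = 1.62e-05, limma) but stayed a small part of the total.

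In glycogen turnover, the phosphorylases Pygm and Pygb and the primer Gyg rose. Pygm, the muscle glycogen phosphorylase, was 0.0995, 0.0413, 0.280 and 0.107 FPKM in control GM, from 4 to 20 fragments. It was 8.44, 7.37, 13.5 and 8.85 in control DM3, from 674 to 2189 fragments. It rose by 3.19 ± 0.18 (adjusted p = 1.36e-09, limma). Pygb, the brain-type form, rose by 0.33 from 38.7 ± 3.78 to 48.8 ± 3.75 FPKM, and Pygl, the liver form, had at most 4 fragments in any library. The Pygb call was lost with TPM, with line averages, and on leaving out line 2 of either culture in GM or line 1 of culture 1 at DM3. Gyg, which primes new glycogen particles, was 22.4, 23.2, 19.6 and 20.3 FPKM in control GM and 48.6, 49.5, 54.8 and 42.5 in control DM3. It rose by 1.15 ± 0.12 (adjusted p = 6.16e-07, limma). Gys1, the muscle glycogen synthase, was 25.6 ± 3.47 and 24.4 ± 3.09 FPKM, and the branching enzyme Gbe1 6.64 ± 1.32 and 5.68 ± 0.459 FPKM, and neither passed. Ugp2, which makes UDP-glucose, had 19.4 ± 1.63 and 23.9 ± 2.46 FPKM (adjusted p = 0.0538, limma). Phka1 and Phkb, regulatory subunits of the kinase that switches phosphorylase on, were 5.42 ± 0.751 and 5.76 ± 0.818 FPKM and 9.11 ± 0.794 and 11.6 ± 0.765 FPKM and did not pass. The catalytic subunit Phkg1, below the filter, went from 0.156 ± 0.0142 to 0.940 ± 0.146 FPKM. Aldoc, also below it, stayed at 0.133 FPKM or less in all 16 libraries. Of the phosphoglucomutases, the gene the table names Pgm1 (chromosome 5; RefSeq calls it Pgm2) fell by 0.38 from 16.8 ± 1.03 to 12.7 ± 0.835 FPKM, a call lost under median-of-ratios scaling. The gene it names Pgm2 (chromosome 4; RefSeq calls it Pgm1) was 44.6 ± 5.03 and 57.7 ± 6.54 FPKM and did not pass.

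Differentiation of tKO cells was compared in the same way. Of 31 members, 15 rose (24.9% of all tested genes did) and 4 fell (36%). The members' median difference was 0.40, and that of all tested genes -0.12. Under median-of-ratios scaling 19 members rose (30.2% of all tested genes did) and 2 fell (30.3%). Both comparisons test DM3 against GM in separate libraries. They passed 14 of the same members, all in the same direction, 10 of them upward: Aldoa, Gapdh, Gpi1, Gyg, Ldhb, Pfkm, Pgam2, Pgk1, Pygb and Pygm rose, and Eno3, Ldha, Pfkfb1 and Pfkfb4 fell. In each comparison 61.3% of the members passed, beside 61.5% of all tested genes in control cells and 60.9% in tKO cells. How many of all tested genes passed in both was not counted, so this overlap is not shown to be particular to the members. Hk2, Pfkfb3, Pfkl, Pgam1 and Pgm1 passed in control cells and not in tKO cells, and Gys1, Pfkp, Phkb, Pkm and Ugp2 passed in tKO cells and not in controls. Eno1, Gbe1, Hk1, Pgm2, Phka1, Slc2a1 and Tpi1 passed in neither. Without the 2 culture 2 libraries of tKO DM3, an alternative added after their muscle markers were seen, 13 members rose and 4 fell. Of all tested genes 22% then rose and 38.2% fell.

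Pgam2, Pygm and Pfkm rose in tKO cells too. Pgam2 was 2.13, 3.15, 2.58 and 2.55 FPKM in tKO GM and 11.1, 17.8, 12.4 and 19.4 in tKO DM3, a rise of 2.14 ± 0.18 (adjusted p = 6.22e-08, limma). Pygm was 0.106, 0.144, 0.461 and 0.169 FPKM in tKO GM, from 9 to 30 fragments, and 3.89, 5.99, 3.11 and 4.58 in tKO DM3. It rose by 2.13 ± 0.18 (adjusted p = 6.49e-08, limma). Pfkm was 31.3, 32.0, 22.2 and 26.3 FPKM in tKO GM and 124, 111, 76.7 and 104 in tKO DM3, a rise of 1.85 ± 0.15. For all 3, every DM3 library was above every GM library. Gyg was 23.3, 25.8, 25.1 and 21.1 FPKM in tKO GM and 40.7, 53.7, 36.02 and 41.4 in tKO DM3, and rose by 0.81 ± 0.12. Aldoa was 1103, 1179.6, 863 and 807 FPKM in tKO GM and 3271, 1598, 2136 and 1681 in tKO DM3, and rose by 1.09 ± 0.20, with clone 1 of culture 1 far above the rest. Ldhb was 0, 0.269, 0.271 and 0.473 FPKM in tKO GM, from 0 to 19 fragments, and 1.15, 2.32, 1.31 and 3.84 in tKO DM3, a rise of 1.27 ± 0.23. Eno3 was 518, 494, 438 and 618 FPKM in tKO GM and 283, 202, 292 and 183 in tKO DM3, a fall of 1.12 ± 0.16. The lactate dehydrogenase Ldha was 1827, 1887, 1218 and 1100.5 FPKM in tKO GM and 1315, 556, 1125 and 884 in tKO DM3. It fell by 0.67 ± 0.23 (adjusted p = 0.0188, limma), and the groups overlapped, since both clone 1 libraries at DM3 exceeded the lowest in GM. Its call was lost under median-of-ratios scaling, with only the compared libraries, and without tKO GM of either clone in culture 1 or tKO DM3 of clone 2 in culture 1. Gys1 rose by 0.87 ± 0.18 from 20.7 ± 5.53 to 38.2 ± 6.83 FPKM (adjusted p = 0.000447, limma). Pfkp rose by 0.92 ± 0.18 from 11.8 ± 3.93 to 22.5 ± 3.61 FPKM, and Pkm, Phkb and Ugp2 rose by 0.44, 0.53 and 0.38. The calls of Pkm, Phkb and Ugp2 were each lost on leaving out 2 of the 8 tKO libraries in turn, first clone 1 of culture 2 in GM. The other was clone 2 of culture 2 in GM for Pkm, and at DM3 clone 2 of culture 2 for Phkb and clone 1 of culture 2 for Ugp2. Pgk1 lost its call in tKO cells without either GM library of culture 2 or clone 1 of culture 1 at DM3. Pfkfb4 was 5.85, 7.96, 6.05 and 6.64 FPKM in tKO GM and 3.69, 4.26, 6.08 and 6.02 in tKO DM3. Its call was lost without clone 2 of either culture in GM and without either culture 1 library at DM3. It was also lost with median-of-ratios scaling, TPM, no filter or only the compared libraries. Without both culture 2 libraries of tKO DM3, Pgk1, Phkb and Ugp2 did not pass.

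Pgam1, Pfkl and Hk2, which fell in controls, did not pass the test in tKO cells. Pgam1 was 493, 369, 305 and 203 FPKM in tKO GM and 495, 231, 421 and 371 in tKO DM3, a difference of 0.17 ± 0.26. Pfkl was 156, 174, 77.3 and 89.6 FPKM in tKO GM and 157, 78.0, 162 and 163 in tKO DM3, a difference of 0.19 ± 0.29. In clone 2 it was lower at DM3 than in GM in culture 1 and higher in culture 2. Hk2 was 22.5 to 29.3 FPKM in tKO GM and 18.8 to 24.2 in tKO DM3 (difference -0.31 ± 0.16). Slc2a1 was 101, 62.3, 70.03 and 44.5 FPKM in tKO GM and 92.7, 32.7, 98.7 and 62.4 in tKO DM3 (difference -0.02 ± 0.28). Slc2a4, below the filter, was 0.0106, 0, 0.0553 and 0.0203 FPKM in tKO GM, from 0 to 4 fragments. In tKO DM3 it was 0.712, 0.441, 0.827 and 0.282 FPKM, from 28 to 76 fragments.

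**Figure D2:**
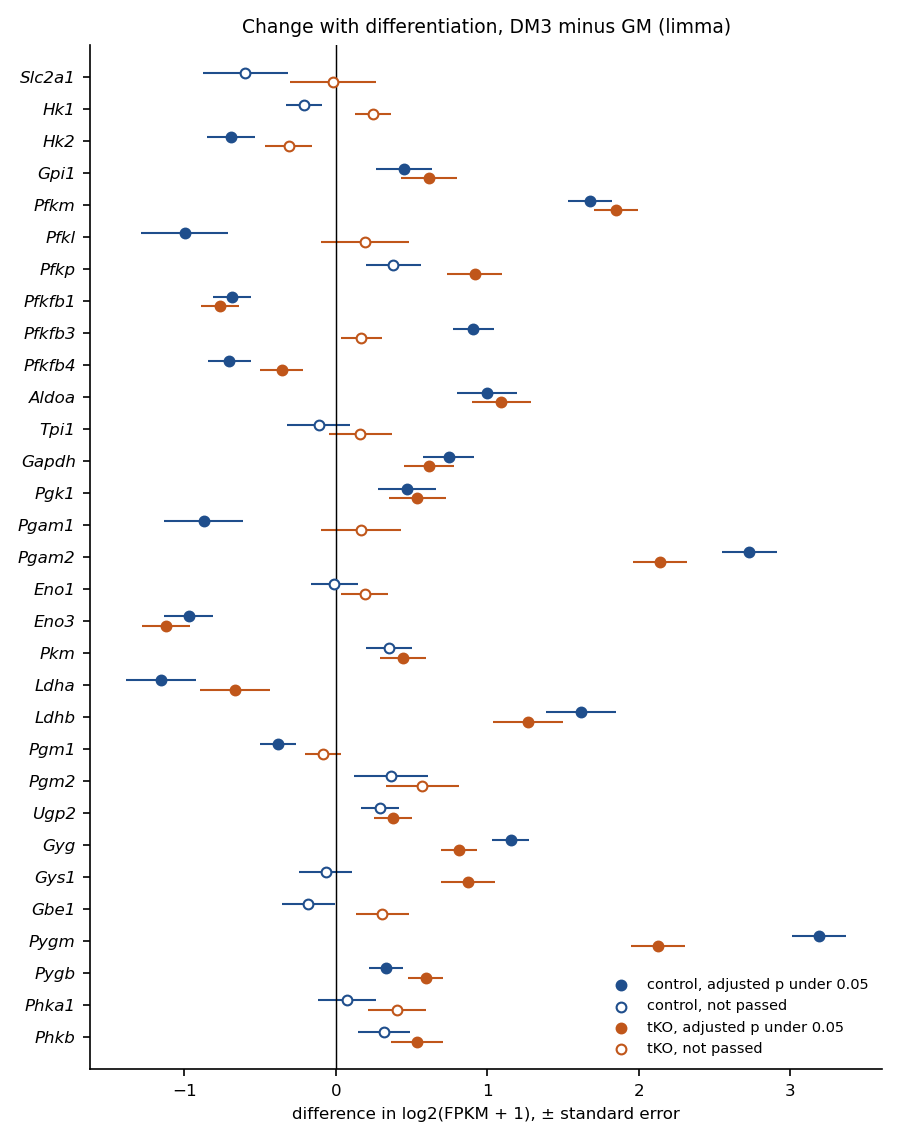
Difference in log2(FPKM + 1) between DM3 and GM for the 31 tested members in control cells (blue) and tKO cells (orange), with standard errors, and filled points passing an adjusted p under 0.05. Pygm, Pgam2, Pfkm and Ldhb lie furthest to the right in both genotypes, and Pfkl and Pgam1 lie left of 0 in controls only.

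The test of whether differentiation moved a member differently in the 2 genotypes (the interaction) passed 0 of 31 members in limma, against 0.254% of all tested genes. At an unadjusted p under 0.05 there were 7 members, against 10.8% of all tested genes, and voom on the fragment numbers passed 0. The largest of these were Pfkl at 1.19 ± 0.41 (adjusted p = 0.288), Pygm at -1.06 ± 0.25 (adjusted p = 0.108) and Pgam1 at 1.04 ± 0.37 (adjusted p = 0.308). Gys1 followed at 0.94 ± 0.25 (adjusted p = 0.147) and Pfkfb3 at -0.74 ± 0.19 (adjusted p = 0.138). A member that passed in 1 genotype and not in the other is therefore not shown to differ between them.

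Before differentiation, the 2 genotypes were compared in GM. No member passed the test, against 0.549% of all tested genes higher in tKO and 1.51% lower. In limma 4 of 31 members had an unadjusted p under 0.05, where 17.5% of all tested genes did, and voom passed 0. The members' median difference was -0.0003, and that of all tested genes -0.01. In 0 members did every tKO library lie above every control (5.38% of all tested genes), and in 4 it lay below (8.62%): Pfkm, Pgam2, Ldhb and Pygb. Pygb was 39.6, 35.7, 43.7 and 35.8 FPKM in control GM and 28.8, 32.1, 23.2 and 29.0 in tKO GM, a difference of -0.44 ± 0.11 (adjusted p = 0.0574, limma). Pfkm differed by -0.43 ± 0.15 (adjusted p = 0.133), Pgam2 by -0.48 ± 0.18 (adjusted p = 0.175) and Ldhb by -0.70 ± 0.23 (adjusted p = 0.126). The glucose transporter Slc2a1 differed by 0.28 ± 0.28, with tKO libraries from 44.5 to 101 FPKM around the controls. Leaving out clone 2 of culture 1 in tKO GM passed Pygb as lower, where 4.15% of all tested genes were lower. It was the 1 leave-out at GM that passed a member.

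At DM3 Pgam2, Pygm and Ldhb were lower in the knockout lines, and Pgam1 and Pfkfb4 were higher. The other muscle forms, Pfkm (-0.26 ± 0.15, adjusted p = 0.386) and Eno3 (-0.13 ± 0.16, adjusted p = 0.731), did not pass in limma. These were 2 of 31 members higher, against 2.02% of all tested genes, and 3 lower, against 1.36%. The members' median difference was 0.16, and that of all tested genes 0.01, with 12 members at an unadjusted p under 0.05, where 16.8% of all tested genes were. In 3 members every tKO library was above every control (Pfkp, Pfkfb4 and Gys1), against 4.22% of all tested genes. In 4 every tKO library was below (Pgam2, Ldhb, Pfkfb3 and Pygm), against 4.3%. The 5 genes lie, on mm10 as the table lists them, at chr19:41911871-41918664 (Pgam1), chr9:108991902-109032223 (Pfkfb4), chr11:5801640-5803733 (Pgam2), chr19:6384399-6398459 (Pygm) and chr6:142490249-142507957 (Ldhb). The muscle markers of the 2 culture 2 libraries were low, as given above. Without those 2 libraries, Pgam2 and Ldhb were lower (1.11% of all tested genes were) and no member was higher (0.803%).

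Pgam2 was 26.5, 27.2, 43.4 and 34.0 FPKM in control DM3 and 11.1, 17.8, 12.4 and 19.4 in tKO DM3. All 4 tKO libraries were below all 4 controls, in both cultures and both clones, and clone 1 was the lower. The difference was -1.07 ± 0.18 (adjusted p = 0.00261, limma), a ratio of means of 0.462. Without the 2 culture 2 libraries of tKO DM3 it was -1.13, with an adjusted p of 0.0104 in limma. Pygm was 8.44, 7.37, 13.5 and 8.85 FPKM in control DM3 and 3.89, 5.99, 3.11 and 4.58 in tKO DM3, with no overlap. The difference was -0.96 ± 0.18 (adjusted p = 0.00611, limma). It was -0.60 within culture 1 and -1.32 within culture 2, where muscle markers were low, and without those 2 tKO libraries it did not pass (-0.82, adjusted p = 0.0628, limma). Ldhb was 4.54, 3.93, 7.21 and 5.52 FPKM in control DM3 and 1.15, 2.32, 1.31 and 3.84 in tKO DM3. Clone 1 was lowest in both cultures, and the nearest tKO library lay just under the lowest control. The difference was -1.05 ± 0.23 (adjusted p = 0.0171, limma), and without the 2 culture 2 libraries -1.21 (adjusted p = 0.0131, limma). The Ldhb call was lost with a pseudocount of 0.1, TPM, voom, only the compared libraries or line averages, and on leaving out line 1 of culture 2 in control DM3 or clone 1 of culture 2 in tKO DM3. Its adjusted p ranged from 0.002 to 0.134 over the alternatives, and it was negative in all of them.

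Pgam1 was 129, 149.8, 177 and 238 FPKM in control DM3 and 495, 231, 421 and 371 in tKO DM3. Clone 2 of culture 1, at 231, lay inside the control range, and the other tKO libraries were above it. The difference was 1.11 ± 0.26 (adjusted p = 0.0259, limma), with a ratio of means of 2.19. It was 1.27 within culture 1 and 0.95 within culture 2. Without the 2 culture 2 tKO libraries it did not pass (1.00, adjusted p = 0.184, limma). Pfkfb4 was 3.1, 2.88, 2.71 and 3.04 FPKM in control DM3 and 3.69, 4.26, 6.08 and 6.02 in tKO DM3. All tKO libraries were above the controls, and those of culture 2, with low muscle markers, were highest. The difference was 0.59 ± 0.14 (adjusted p = 0.0294, limma). Without the culture 2 tKO libraries it was 0.34 (adjusted p = 0.283, limma). The part of the muscle marker level in these values was not tested. Both Pgam1 and Pfkfb4 carry a seed match printed above. Pfkfb3, which carries one too, differed in the other direction by -0.47 ± 0.14 (adjusted p = 0.0717, limma), and Pgm1 by 0.24 ± 0.12 (adjusted p = 0.313, limma). The Pgam1 gene has processed copies elsewhere in the genome, as have Gapdh, Aldoa, Eno1, Ldha, Pkm and Tpi1, and reads shared with copies could be counted to either.

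Leaving out single libraries moved this count from 2 to 11 members. Without clone 2 of culture 1 in tKO DM3, 7 members were higher (Eno1, Gys1, Ldha, Pfkfb4, Pfkl, Pgam1 and Slc2a1) and 4 lower (Ldhb, Pfkfb3, Pgam2 and Pygm), where 3.18% of all tested genes were higher and 1.87% lower. That library held 32.7 FPKM of Slc2a1, against 62.4 to 98.7 in the other tKO DM3 libraries and 32.6 to 39.7 in controls. For Pfkl it lay inside the control range (78.0 FPKM, controls 52.2 to 105), and for Ldha below it (556 FPKM, controls 589 to 712). With all libraries, Slc2a1 differed by 0.86 ± 0.28 (adjusted p = 0.117, limma) and Pfkl by 0.94 ± 0.29 (adjusted p = 0.092, limma). Ldha differed by 0.49 ± 0.23 (adjusted p = 0.294, limma). Both libraries of clone 1 exceeded every control in 13 of the 31 members (12.9% of all tested genes) and lay below every control in 6 (14.9%). Both libraries of clone 2 lay above in 4 (15.1%) and below in 7 (12%). Leaving out control DM3 of line 1 in culture 2, or clone 1 of culture 2 in tKO DM3, left Pgam2 and Pygm lower and no member higher. Leaving out either control DM3 library of culture 1, or clone 2 of culture 2 in tKO DM3, left Ldhb, Pgam2 and Pygm lower and no member higher. In the fits that left no member higher, 1.06% to 1.54% of all tested genes were higher and 0.701% to 1.33% lower.

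**Figure D3:**
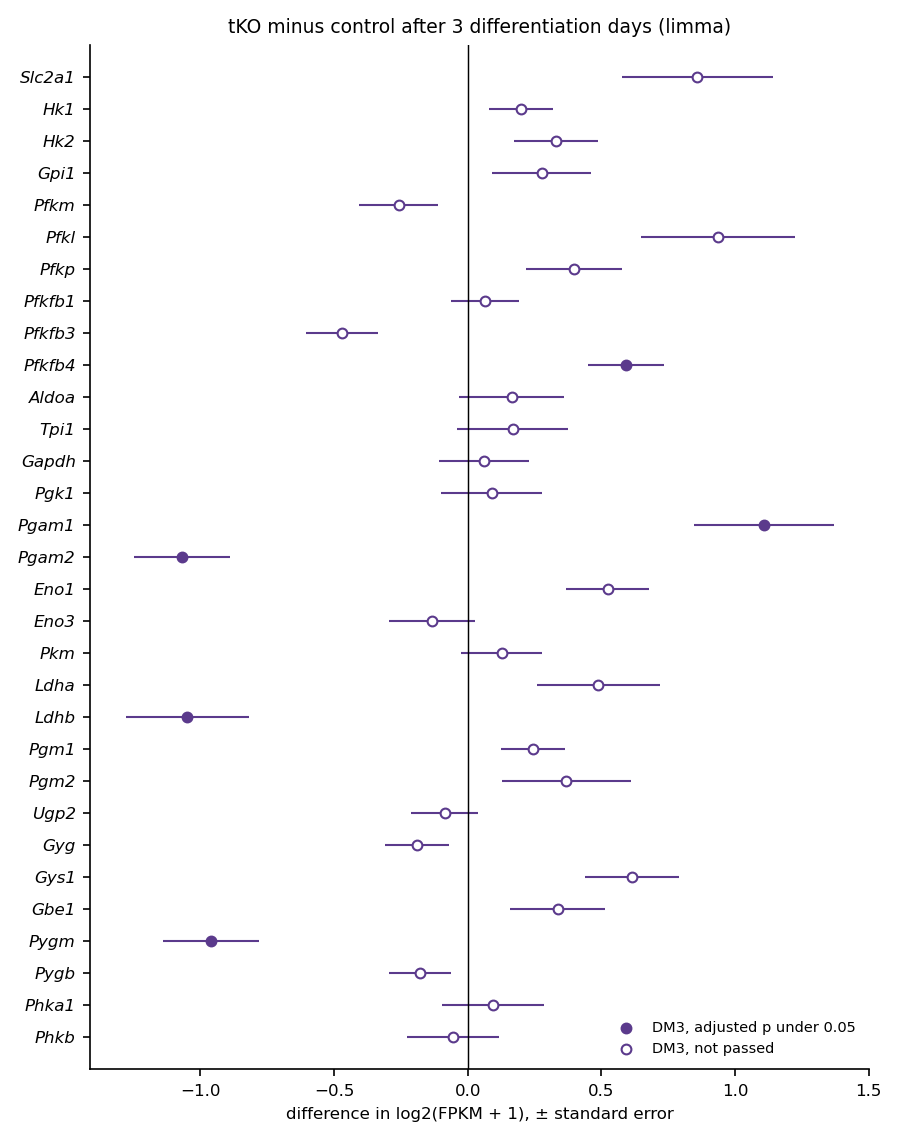
Difference in log2(FPKM + 1) between tKO and control at DM3 for the 31 tested members, with standard errors. Filled points, at an adjusted p under 0.05, are Pgam1 at 1.11 and Pfkfb4 at 0.59 on the right and Pgam2 at -1.07, Ldhb at -1.05 and Pygm at -0.96 on the left.

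Where a step has several genes, the share of 1 form in the summed FPKM of its family was compared. Only members were summed, so the enolase sum left out Eno2. It averaged 12.5 FPKM in control GM, 57.3 in control DM3 and 62.0 in tKO DM3. An exact permutation test in both directions ran over 70 splits of 4 against 4 libraries. The smallest p this design can give is 0.0286, and 32 tests were adjusted together (0.0457 at that p). The muscle mutase Pgam2 held 1.28% ± 0.16 (SD, n = 4) of mutase FPKM in control GM and 16.1% ± 3.0 in control DM3. In tKO cells it held 0.838% ± 0.330 and 4.29% ± 2.24. The share at DM3 was lower in tKO without overlap (exact p = 0.0286). Total mutase FPKM at DM3 was 206 in controls and 395 in tKO, so Pgam1 set the total in both. Pygm held 0.325% ± 0.222 of phosphorylase FPKM in control GM, 16.3% ± 4.2 in control DM3 and 9.11% ± 1.38 in tKO DM3, again without overlap between genotypes at DM3 (exact p = 0.0286). Eno3 held 30.3% ± 2.1 of enolase FPKM in control GM and 18.3% ± 1.6 in control DM3. In tKO it held 26.3% ± 5.0 and 12.4% ± 1.1, lower than controls at DM3 without overlap (exact p = 0.0286). Pfkm held 19.9% ± 2.9 of phosphofructokinase FPKM in control GM, 58.5% ± 5.6 in control DM3 and 39.8% ± 10.2 in tKO DM3. The genotypes overlapped there (exact p = 0.0571, adjusted 0.0795), since clone 2 of culture 1 sat with the controls. Hk2 held 15.9% ± 3.1 and 17.1% ± 1.8 of hexokinase FPKM at DM3 (exact p = 0.514). Ldha held 99.2% ± 0.2 of lactate dehydrogenase FPKM in controls at DM3, against 99.7% ± 0.2 in the knockouts (exact p = 0.0286), and Aldoa nearly all of the aldolase FPKM everywhere. Without the culture 2 libraries of tKO DM3 the differences in share at DM3 were -11.5 percentage points for Pgam2, -6.58 for Pygm and -5.93 for Eno3, beside -11.9, -7.18 and -5.86 with them.

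**Figure D4:**
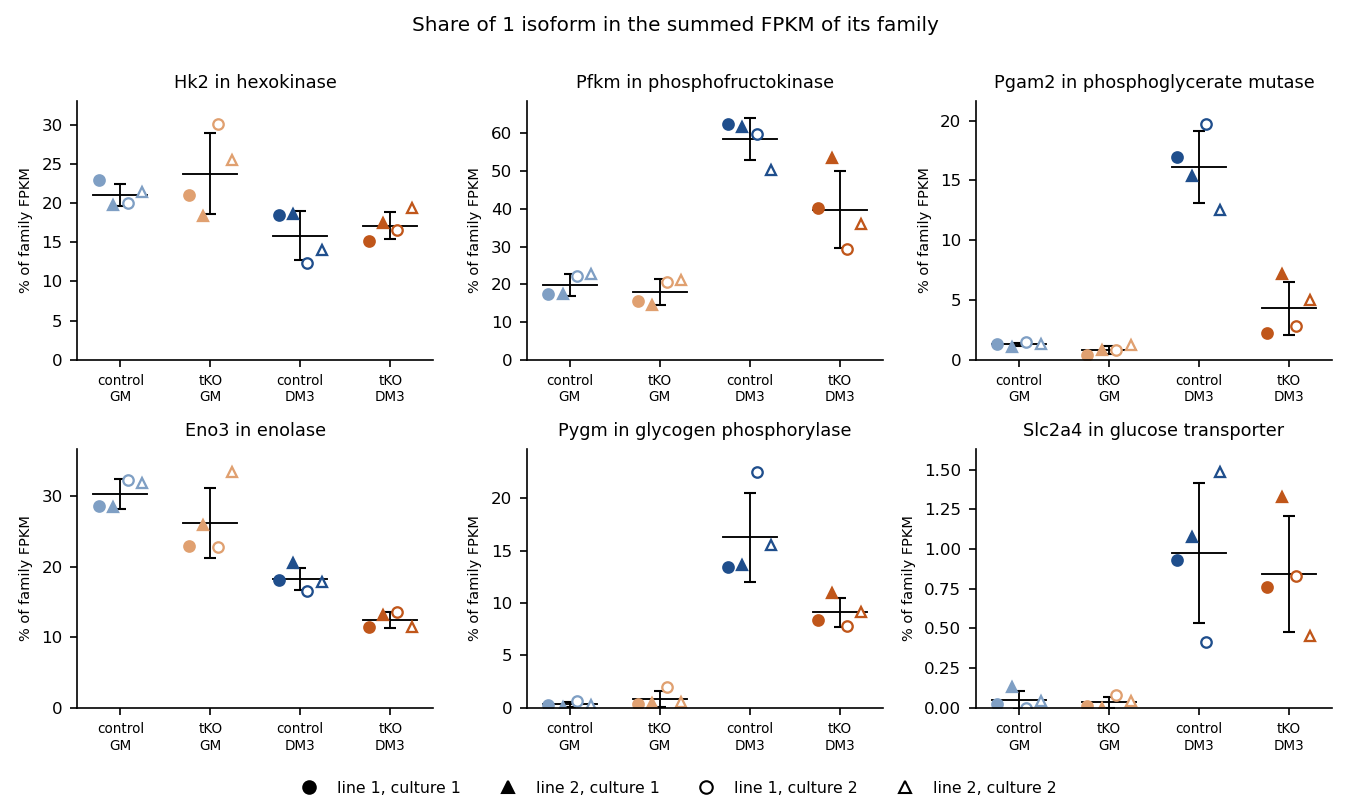
Share (percent, axes from 0) of 1 form in the summed FPKM of its enzyme family or transporter group, members only, in each library. Drawing is as in the plot of FPKM by library, with the mean ± SD of 4 libraries. Pgam2 and Pygm are near 0 in GM, and at DM3 their tKO libraries lie below all controls, at 4.29% and 9.11% on average.

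Other genes of the pathway came from lists fixed by name. Of 36 further enzymes of glycolysis and glycogen, 35 were found (Tigar was not matched by symbol) and 17 tested. At DM3, where 2.02% of all tested genes were higher in tKO and 1.36% lower, 1 of these enzymes was higher and 0 lower. It was Adpgk, a glucokinase that uses ADP, at 8.39, 8.84, 6.6 and 7.28 FPKM in control DM3 and 11.8, 15.6, 14.5 and 12.5 in tKO DM3 (difference 0.73 ± 0.11, adjusted p = 0.00134, limma). Of 14 tested genes of glucose uptake and its control, 0 passed at DM3 in limma, and of 15 tested regulators of glycolytic genes also 0. In GM 0 genes of any of the 4 lists passed (0.549% of all tested genes were higher and 1.51% lower), and 0 in the interaction (0.254%). With differentiation, 23.2% of all tested genes rose and 38.3% fell in control cells, and 24.9% rose and 36% fell in tKO cells. Of the 14 uptake genes 8 rose and 1 fell in control cells, and 9 rose and 1 fell in tKO cells. Of the 17 further enzymes 9 rose and 4 fell in control cells, and 11 rose and 1 fell in tKO cells. Of the 15 regulators 6 rose and 1 fell in control cells, and 7 rose and 2 fell in tKO cells. Of 14 tested hypoxia-responsive genes that are no glycolytic enzymes, 2 were higher in tKO DM3 (2.02% of all tested genes) and 0 lower (1.36%). Their median difference was 0.64 against 0.01 over all tested genes. With differentiation, 4 of these 14 rose and 3 fell in control cells, and 9 rose and 0 fell in tKO cells. Ero1l, an oxidase of protein folding, was 32.2, 35.3, 34.2 and 28.4 FPKM in control DM3 and 149, 56.8, 106 and 88.8 in tKO DM3. All tKO libraries were above the controls, by 1.51 ± 0.21 (adjusted p = 0.000394, limma). Car9, a carbonic anhydrase, was 1.1, 1.15, 2.37 and 2.67 FPKM in control DM3 and 5.36, 3.1, 7.25 and 4.07 in tKO DM3, higher by 1.07 ± 0.22 (adjusted p = 0.0113, limma). Clone 2 of culture 1, lowest of the tKO DM3 libraries for Slc2a1, Pfkl, Pgam1 and Ldha, was also lowest for Ero1l and Car9.

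**Figure D5:**
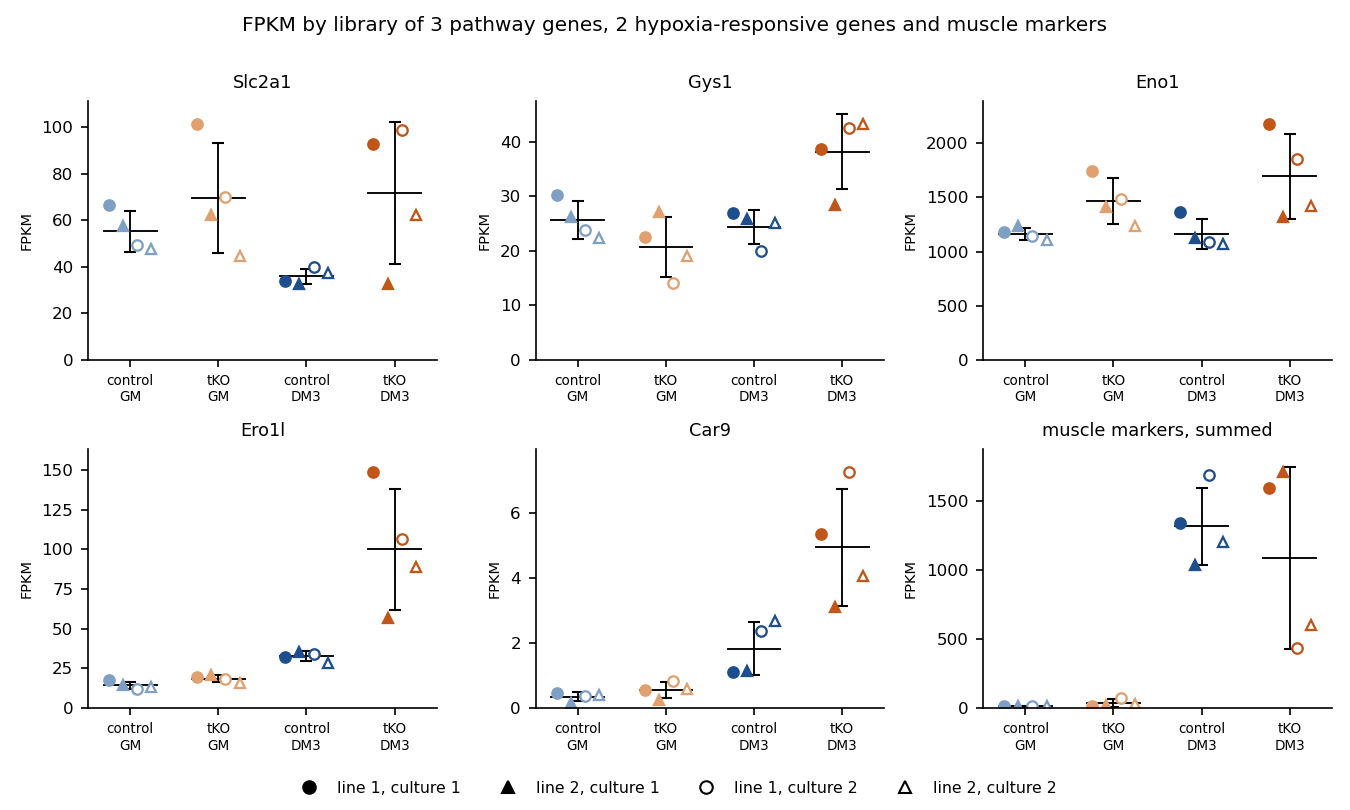
FPKM (linear axes from 0) by library of Slc2a1, Gys1 and Eno1, of the hypoxia-responsive genes Ero1l and Car9, and of the summed muscle markers, drawn as in the plot of FPKM by library. Clone 2 of culture 1 (filled triangle) is lowest of the tKO DM3 libraries in the first 5 panels and highest for muscle markers, at 1707 FPKM.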

How the data were processed

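Poly(A) RNA of 16 C2C12 libraries was sequenced on an Illumina HiSeq instrument, per the labels' protocols. The submitters' processing notes name STAR, DESeq and build mm10, with no versions or roles. The authors deposited 1 table of FPKM values per gene and library, with replicates not pooled. The counting program, annotation release and use of strand are not given in the sources used here.

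FPKM times gene length gave whole multiples of a step in each library for 100% of values above 0 (tolerance 0.1), so fragment numbers were worked out. Tests used log2(FPKM + 1), which understates changes of low genes, for 11832 genes with a mean of at least 0.5 FPKM. limma 3.58.1 in R 4.3.3 fitted group means over all 16 libraries, with trend and robust moderation, and p-values were adjusted by Benjamini-Hochberg across every gene tested. Standard errors are from that fit. The same procedure was run on simulated counts with the same relative spread set for every gene. That simulation held no differences between lines or cultures, so it cannot show how the fit handles those in the real libraries. Values in every library are given for members that passed between genotypes, for the 8 largest passing changes in control cells, and for the form each share is taken of. Slc2a1 and Pygb were added after their values were seen. Of other genes, those passing between genotypes are named, and Slc2a8 and Eno2 because the shares leave them out. Members and lists were chosen with earlier results of these data known. Intervals and floors cover counting error only. Alternatives were a pseudocount of 0.1, no filter or one of 5 FPKM, median-of-ratios scaling, TPM, the replicate number as a block, only the compared libraries, line averages, voom on fragments, and leaving out each library. Leaving out both culture 2 libraries of tKO DM3 was added after the data were seen. Sequences are from RefSeq (GRCm38.p6), and 3′ UTRs from GENCODE on the same build.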

Additional observations from a re-analysis of the deposited data

Results flagged for a closer look

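In 5 of 124 groups of 4 libraries, 1 library of a member stood far from the other 3 by Dixon's test at the 95% level, which chance gives in about 5% of groups. Pfkl was 78.0 FPKM in clone 2 of culture 1 in tKO DM3, against 157 to 163 in the other 3 libraries. Pfkm was 44.7 FPKM in control GM, line 1 of culture 2, against 34.7 to 36.2. Pfkfb3 was 4.92 FPKM in control GM, line 2 of culture 2, against 4.15 to 4.2. Pgm2 was 37.1 FPKM in that same library, against 46.5 to 47.7. Gbe1 was 4.99 FPKM in control DM3, line 2 of culture 2, against 5.82 to 5.95.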

How the results depend on the processing

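The counts of members passing with differentiation stayed within 1.5 times their value of 19 under every alternative run, in both genotypes. In GM the count of 0 became 1 with a pseudocount of 0.1 (Ldhb) and with either replicate block (Pygb), and was 0 to 1 on leaving out single libraries. Both genes were lower in tKO, as were 1.78% to 3.68% of all tested genes in the fits with that pseudocount or a block. At DM3 the count of 5 between genotypes became 3 with a pseudocount of 0.1 or a filter of 5 FPKM, 1 with only the compared libraries (Pgam2), 0 with line averages, and 2 without both culture 2 libraries of tKO DM3. The shares of all tested genes higher and lower were 1.87% and 1.07% with that pseudocount and 2.03% and 0.864% with that filter. They were 0.431% and 0.524% with only the compared libraries and 0.575% and 0.532% with line averages. The count of members was 2 to 11 on leaving out single libraries. Pgam2 passed in 18 of 19 alternatives, Pygm in 14 of 18, Ldhb in 11 of 18, and Pgam1 and Pfkfb4 in 10 of 19 each. Line averages leave few degrees of freedom.

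The labels state no pairing. Libraries of the same culture number and other genotype deviated together with a correlation over 0.1 in 7 of 8 pairs in GM and 5 of 8 at DM3. At DM3 the correlations ran from -0.22 to 0.56. Libraries of the same line and culture number at the other stage had 0.08 to 0.32, over 0.1 in 6 of 8 pairs. The main tests of DM3 against GM took the libraries as unpaired. With the culture number within stage as a replicate block, 8 members passed between genotypes at DM3 (Gys1, Pfkl and Pfkfb3 added). Of all tested genes 3.82% were then higher and 2.5% lower, against 2.02% and 1.36% without the block. In the interaction 1 member passed (Gys1), where 0 passed otherwise. All tested genes went there from 0.203% higher and 0.0507% lower to 0.786% and 0.27%. With 1 culture term for both stages 5 members passed at DM3, where 2.66% of all tested genes were higher and 1.76% lower.

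Directions that turned were of differences near 0 or of low genes, and the cause was not tested. Eno3 in GM was -0.037 with TPM, and Ldha in GM 0.019 with median-of-ratios scaling. With TPM, Pkm and Pgk1 turned too in GM, and Slc2a1 in differentiation of tKO cells. With median-of-ratios scaling, Gys1, Tpi1 and Eno1 turned in differentiation of control cells, and Slc2a1 and Pgm1 in that of tKO cells. None of these differences had passed. The direction of single genes under the other alternatives was followed only for the members in the plot of FPKM by library. The Ldhb interaction was 0.50 with a pseudocount of 0.1 and 1.29 with voom. On leaving out single libraries, the GM difference ranged from -0.021 to 0.161 for Aldoa, -0.071 to 0.094 for Eno3, -0.096 to 0.026 for Hk2, -0.12 to 0.14 for Ldha and -0.13 to 0.30 for Pgam1. The DM3 difference of Aldoa ranged from -0.053 to 0.291 and its interaction from -0.12 to 0.22. Differentiation in tKO cells ranged from -0.0058 to 0.450 for Pfkl and -0.060 to 0.386 for Pgam1. Without both culture 2 libraries Pfkl was -0.081 there. The Slc2a4 share differed by -0.0316 to 0.0113 percentage points in GM and -0.320 to 0.0363 at DM3, and by 0.0702 at DM3 without both culture 2 libraries. Members with few fragments (Slc2a4, Pygl, Slc2a3, Aldoc, and Pygm and Ldhb in GM) are limited by depth.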
